A study of Mus musculus with 7 samples.

Results

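The 10 genes described are the mouse MHC class II genes H2-Aa, H2-Ab1, H2-Eb1, Cd74, Ciita, H2-DMa, H2-DMb1, H2-DMb2, H2-Oa and H2-Ob, found by symbol among the 55357 features of the count matrices. The study used single-cell RNA sequencing of liver from a hepatocellular carcinoma model in which plasmids encoding Nras and C-myc, 2 oncogenes, were delivered by hydrodynamic tail vein injection, a rapid tail vein injection that drives DNA into liver cells. The 3 control libraries carried these oncogene plasmids alone. The 4 treated libraries carried the same oncogene plasmids and, co-injected, a plasmid expressing IL-2/CD25, described in the study's title as a fusion protein. Liver tissue for all 7 libraries was taken 2 weeks after injection, and all carry the same batch label. Strain, sex and age were not given in the sources used here. The labels do not say that each library is a separate animal, so p-values measure the spread between these libraries.

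MHC class II molecules carry peptides, mostly from proteins taken up from outside the cell, to the surface for CD4 T cells. H2-Aa and H2-Ab1 encode the alpha and beta chains of one class II molecule, and H2-Eb1 encodes the beta chain of the other. Cd74 encodes the invariant chain, which fills the groove of new molecules. H2-DMa with H2-DMb1 or H2-DMb2 forms DM, which swaps the remnant of the invariant chain for peptide in the endosome, and H2-Oa with H2-Ob forms DO, an inhibitor of DM best known from B cells. Ciita encodes the coactivator that switches these genes on, from distinct start sites in dendritic cells, in B cells and in cells exposed to interferon gamma. Dendritic cells and B cells hold class II at rest, macrophages raise it with interferon gamma, and mouse T cells, NK cells and neutrophils are held to make little or none.

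Class II promoters are known for an X box, bound by the RFX complex, followed by a Y box, bound by NF-Y, and CIITA docks on the proteins at both. RefSeq's promoter table for GRCm38.p6, which spans 250 bases before to 50 after each annotated start, held 7 of the 10 genes (not H2-Ab1, Cd74 or Ciita). In 6 of those 7, AAC was followed 28 to 31 bases later by ATTGG on the gene's own strand, upstream of the start. The stretches below show what these genes share in sequence, 5' to 3', with AAC and ATTGG in capitals.
H2-Aa, chr17:34287862-34287914, minus strand: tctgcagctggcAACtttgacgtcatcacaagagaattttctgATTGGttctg
H2-Eb1, chr17:34305766-34305817, plus strand: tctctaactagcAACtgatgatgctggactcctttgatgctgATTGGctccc
H2-DMb1, chr17:34153087-34153139, plus strand: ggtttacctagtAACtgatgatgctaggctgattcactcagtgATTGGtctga
H2-DMb2, chr17:34145116-34145168, plus strand: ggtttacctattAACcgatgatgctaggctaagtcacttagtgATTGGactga
H2-Oa, chr17:34092293-34092345, plus strand: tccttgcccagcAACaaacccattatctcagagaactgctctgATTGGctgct
H2-Ob, chr17:34238808-34238857, plus strand: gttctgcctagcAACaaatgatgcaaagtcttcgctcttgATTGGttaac
The ATTGG lay between 43 and 90 bases before the start. Of the 32851 promoter records, 1.15% held this pair on the gene's strand, 2.49% held it on either strand, and 37.4% held ATTGG on either strand. The letters and the spacing were chosen after these sequences were read, so the match is a description. Neither of the 2 annotated starts of H2-DMa held the pair in its window. H2-DMb1 and H2-DMb2 are near-identical copies, so reads may have been split between them.

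Cells were sorted into classes by UMIs (unique molecular identifiers, each standing for 1 captured RNA molecule) of marker genes, and none of the 10 genes was used for this. Levels are given as CPM, the UMIs of a gene summed over a class in a library and scaled to a common total of UMIs, as mean ± SD over 3 control and 4 treated libraries. The libraries held 7263 to 10637 barcodes and between 37653600 and 181755269 UMIs, with a median per kept cell of 6254 to 8724 UMIs in controls and 3215 to 4478 in treated libraries. Between any 2 libraries at most 37 barcodes were shared, 0.385% of the smaller one. The classes' sizes moved with treatment: C1q macrophages numbered 437 to 726 cells per control library and 24 to 50 per treated library, monocytes 1505 to 2414 and 53 to 141, and cDC1 212 to 256 and 43 to 62. B cells numbered 79 to 279 per control library and 459 to 1472 per treated one. Tumour cells, gated on epithelial and oncogene markers with Krt8 or its keratin partner and Cdkn2a, numbered 392 to 2281 per control library and 4 in all treated libraries together, so their class II level can be given for controls only. The gates require each of the 12 classes tested below to express its own markers, so marker levels describe the gates and do not check them. The B cell list, for example, summed to 7117 ± 259 CPM in control B cells and 13.1 ± 7.34 CPM in control cDC2.

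In control livers, conventional dendritic cells held the highest levels of the classical chains. H2-Aa stood at 6101 ± 314 CPM in cDC1 (5838, 6448 and 6015 in the 3 libraries), the dendritic type specialised in cross-presentation, and at 5657 ± 518 CPM in cDC2 (5568, 6213 and 5189), the type that mainly serves CD4 T cells. These 2 classes overlapped. Mature dendritic cells, marked by Ccr7 and Fscn1, followed at 3806 ± 158 CPM. B cells at 2876 ± 181 and C1q macrophages at 2579 ± 287 CPM overlapped. Plasmacytoid dendritic cells (pDC) held 996 ± 122 CPM and monocytes 434 ± 114 CPM, and neither overlapped its neighbours in the order. NK cells, neutrophils, T cells and tumour cells came last, between 54.2 and 215 CPM, and each overlapped its neighbour in the order.

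In treated livers cDC1 and cDC2 changed places, still overlapping, and C1q macrophages moved up to 6978 ± 372 CPM of H2-Aa, among the dendritic classes: cDC2 held 8189 ± 479.9, cDC1 7895 ± 309.8 and mature dendritic cells 6400.2 ± 441 CPM. The macrophage libraries overlapped those of mature dendritic cells and lay below those of both conventional types. B cells at 4165 ± 122, pDC at 2040.0 ± 110.2 and monocytes at 724 ± 157 CPM followed without overlap. Cd74, the most abundant of the 10 by UMIs, showed the same order in controls, from 17196 ± 1092 CPM in cDC1 to 1492 ± 455 in monocytes. In treated libraries its levels in cDC2, cDC1, macrophages and mature dendritic cells overlapped from each to the next, between 15225 and 19460.3 CPM.

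The DO genes followed another order. H2-Ob peaked in B cells, at 402 ± 32.1 CPM in controls against 82.3 ± 4.13 in cDC1, 66.4 ± 2.38 in cDC2, 27.0 ± 11.4 in mature dendritic cells and 5.46 ± 3.46 in pDC. H2-Oa was spread more evenly, at 227 ± 23.4 CPM in control B cells, 195 ± 15.2 in cDC2, 99.2 ± 14.1 in pDC and 97.6 ± 3.93 in cDC1. In pDC, H2-Oa was present with little H2-Ob. C1q macrophages and monocytes held both DO genes at 1.93 to 4.70 CPM in controls, too few UMIs for a test within the class. H2-DMa, the partner of both DM beta chains, was highest in cDC2 (1119 ± 106 CPM) and cDC1 (1007 ± 26.3) and next in macrophages (853 ± 37.1). H2-Ea, which encodes the alpha chain that pairs with H2-Eb1 and is not among the 10, had 2 to 6 UMIs per whole library.

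**Figure D1:**
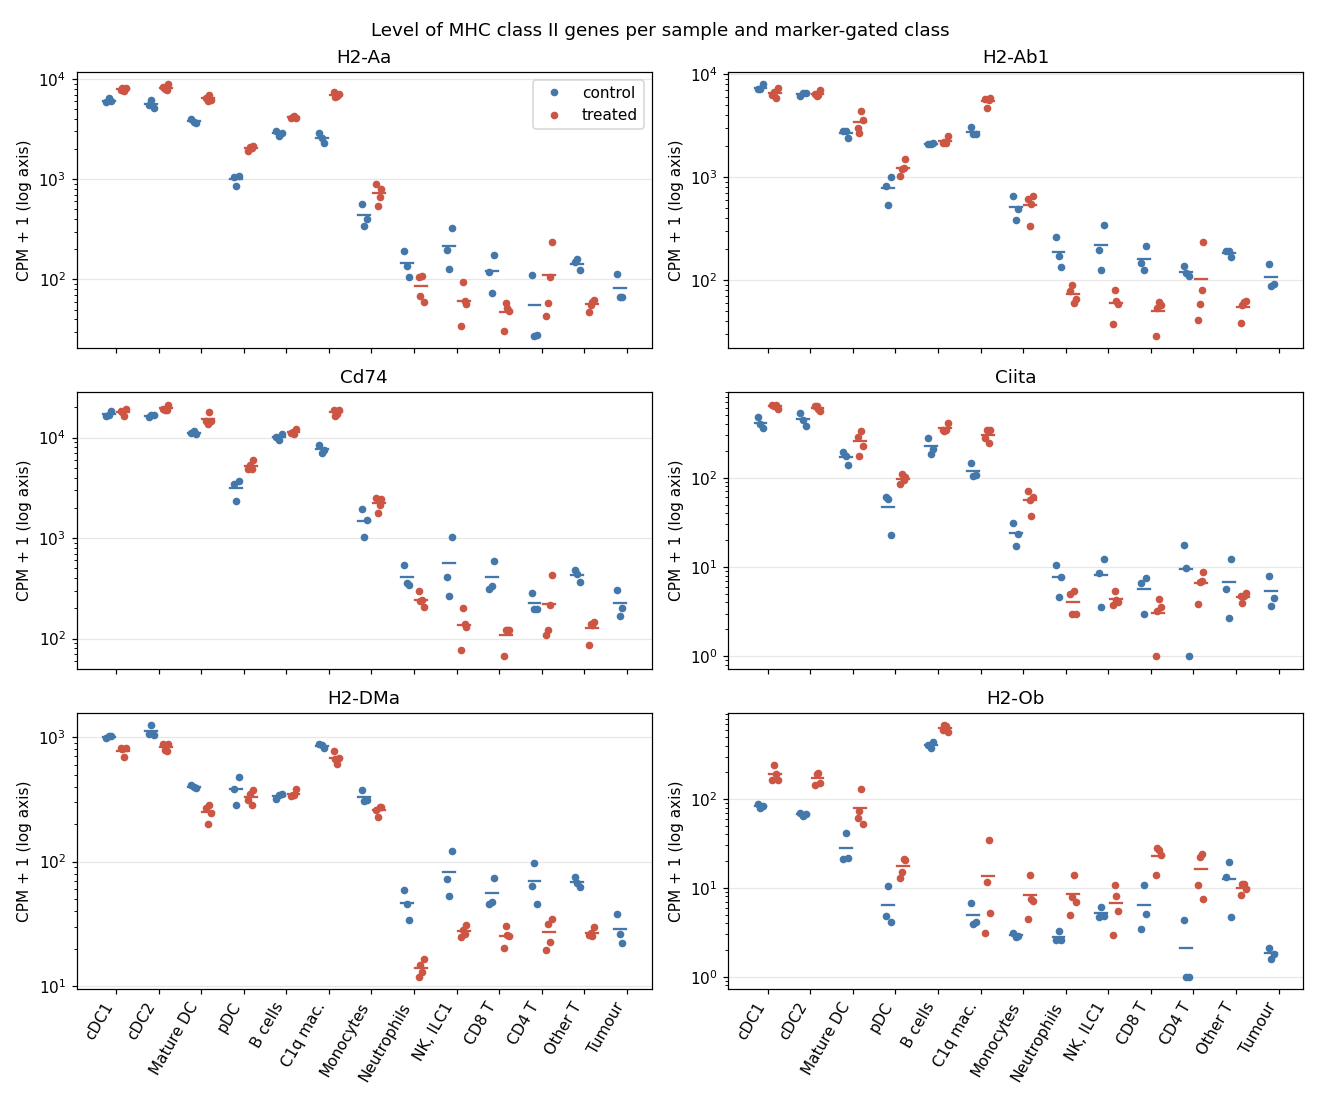
Level of 6 of the genes (CPM + 1, log axis) in each marker-gated class, 1 point per library (control blue, treated red), with a bar at the group mean. H2-Aa, H2-Ab1, Cd74 and Ciita are high in dendritic cells, B cells and macrophages and low in lymphoid and tumour cells, whereas H2-Ob peaks in B cells.

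Droplets also take up free RNA from burst cells, and its share was estimated per class and library from markers of other lineages. It ran from 6.11% to 17.1% of a class's UMIs in controls and from 2.97% to 11.8% in treated libraries. In tumour cells, Cd74 stood at 224 ± 71.8 CPM (304, 165 and 202), which was 0.876 to 1.15 times the level that free RNA alone would give. H2-Aa there was 0.966 to 1.23 times, H2-Ab1 1.09 to 1.37 times and Ciita 0.763 to 1.12 times that level. Cd74, H2-Aa and Ciita in control tumour cells thus lay on both sides of the free RNA level, and H2-Ab1 and H2-Eb1 (1.06 to 1.31 times) lay above it in all 3 libraries. These ratios rest on the median marker list, and the lists differed widely in tumour cells. They gave shares of 6.80% to 207% around a median of 10.3% in control 1. In control 2 they gave 4.48% to 265% around 6.11%, and in control 3 10.3% to 111% around 11.9%. The uncertainty of the free RNA estimate itself was not tested. For comparison, Cd74 exceeded the free RNA level 23.2 to 39.9 times in control macrophages and 54.3 to 184 times in treated ones, and 4.00 to 6.32 and 11.6 to 28.4 times in monocytes.

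**Figure D2:**
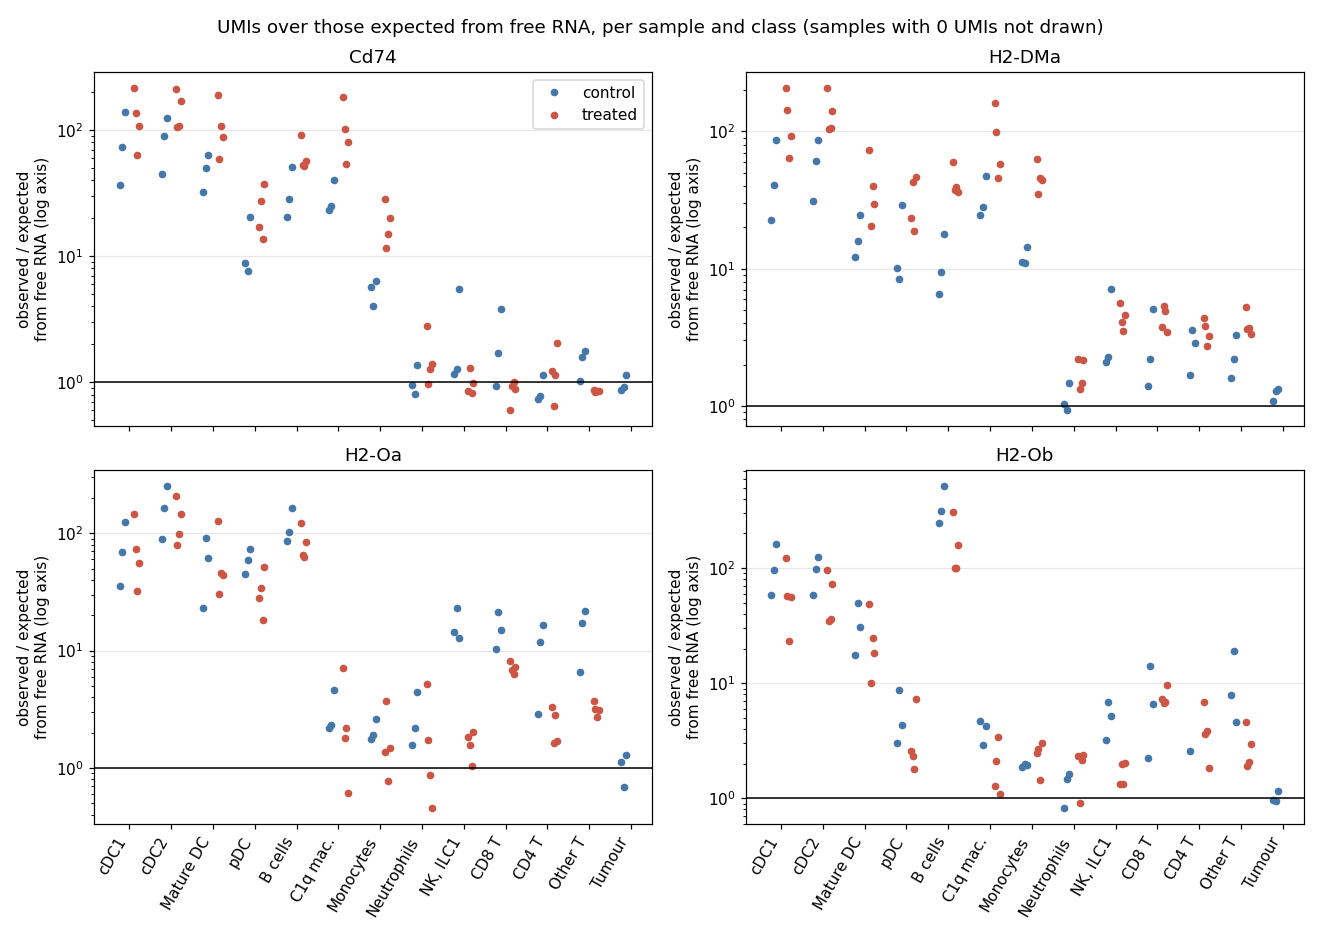
UMIs of Cd74, H2-DMa, H2-Oa and H2-Ob divided by those expected from free RNA (log axis), 1 point per library and class (control blue, treated red), with the line at 1 where free RNA accounts for the level. Tumour cells lie near 1 for all 4 genes. Lymphocytes lie above 1 for H2-DMa in both groups and for H2-Oa in controls. CD8 T cells also lie above 1 for H2-Oa in treated libraries and for H2-Ob in both groups.

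Treated and control libraries were compared by edgeR's quasi-likelihood test on UMIs summed per class and library. A change is called at a Benjamini-Hochberg adjusted p under 0.05 over all genes of the class, and log2 changes are after TMM scaling, given ± SE. In C1q macrophages 7 of the 8 genes tested were called, 5 higher and 2 lower, where 24.3% of all genes tested in the class were called higher and 25.2% lower. In cDC1 all 10 were tested and 4 were called higher and 4 lower (19.1% and 19.3% of all genes). In cDC2 4 were higher and 2 lower (21.1% and 22.5%), in mature dendritic cells 5 higher and 1 lower (10.8% and 11.4%), in pDC 5 higher (6.20%) and none lower (7.76%), and in B cells 3 higher (9.75%) and none lower (13.6%). In monocytes 8 were tested, with 2 higher and 2 lower (24.6% and 24.1%). Many genes changed in these classes, so a count near those shares is no result about the 10 genes. The median log2 change of the genes tested was 1.03 in macrophages, 0.41 in mature dendritic cells, 0.44 in pDC, 0.10 in cDC2, -0.10 in cDC1, 0.04 in B cells and 0.13 in monocytes, beside -0.0134 to 0.062 over all genes in the 12 classes.

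**Figure D3:**
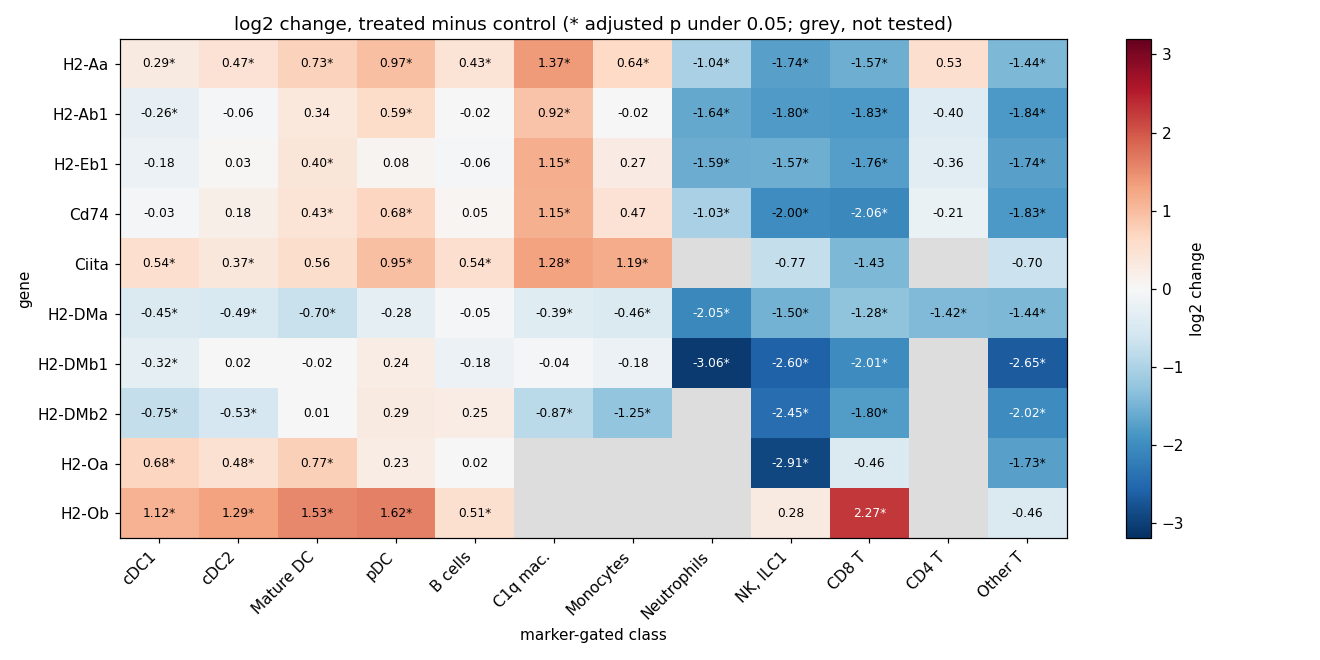
Log2 change of each gene, treated minus control, in each of the 12 classes tested by edgeR (red higher, blue lower in treated; * adjusted p under 0.05; grey, too few UMIs to test). H2-Aa, Ciita and H2-Ob are red across the antigen-presenting classes where tested, H2-DMa is blue in all 12, and the chains and Cd74 are reddest in C1q macrophages.

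Of the antigen-presenting classes, macrophages had the largest log2 rises of H2-Aa, H2-Ab1, H2-Eb1, Cd74 and Ciita. Their H2-Aa was 2866, 2580.5 and 2292 CPM in controls and 7435, 6642, 6709.7 and 7126 CPM in treated libraries, without overlap, a log2 rise of 1.37 ± 0.13 (edgeR adjusted p = 2.91e-06). Cd74 was 8454, 7029 and 7478 CPM in controls and 18902, 16353, 17133 and 18588 in treated libraries, again without overlap (1.15 ± 0.13, edgeR adjusted p = 1.21e-05). H2-Ab1 rose from 2765 ± 242 to 5475 ± 538 CPM (0.92 ± 0.13) and H2-Eb1 from 1869 ± 196 to 4349 ± 365 CPM (1.15 ± 0.13). The cells gated as macrophages also differed in make-up. The 5 Kupffer cell markers (Clec4f, Vsig4, Timd4, Cd5l and Marco), which define the resident macrophages of the liver, summed to 8.13 to 69.4 CPM in controls and 626 to 1907 CPM in treated libraries. The monocyte markers went the other way, from 4783 ± 253 to 1357 ± 459 CPM, and the Cx3cr1 monocyte markers rose with treatment from 171 ± 24.5 to 695 ± 193 CPM. Of the macrophages in the 3 control libraries, 428 of 726, 232 of 437 and 242 of 437 also passed the monocyte gate. In treated libraries it was 1 to 4 cells each. With those cells left out, an alternative chosen after seeing the data, all 7 calls were kept. The 17 alternatives, this one among them, gave log2 rises down to 0.97 for H2-Aa, 0.54 for H2-Ab1 and 0.73 for H2-Eb1. For Cd74 and Ciita they went down to 0.82 and 0.92. The comparison of macrophages with cDC2 below was not repeated without those cells. The part of the Kupffer markers in the result was not tested.

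Among dendritic cells, H2-Aa rose in every class while its partner chain did not rise in all of them. In cDC2 H2-Aa was 5568, 6213 and 5189 CPM in controls and 8267, 7868, 7784 and 8835 in treated libraries (0.47 ± 0.10, edgeR adjusted p = 0.000812). H2-Ab1 in cDC2 stood at 6419 ± 296 and 6440.2 ± 401 CPM (-0.06 ± 0.09, not called). In cDC1 H2-Aa was 5838, 6448 and 6015 CPM in controls and 7729.5, 8151, 7540.1 and 8158 in treated libraries (0.29 ± 0.08, edgeR adjusted p = 0.0089). H2-Ab1 in cDC1 fell by 0.26 ± 0.09, with overlapping libraries. In mature dendritic cells H2-Aa rose from 3806 ± 158 to 6400.2 ± 441 CPM (0.73 ± 0.10), with H2-Eb1 (0.40 ± 0.11) and Cd74 (0.43 ± 0.10). In pDC H2-Aa was 1061, 855 and 1071 CPM in controls and 1895, 2076, 2030.5 and 2158 in treated libraries, 1.96-fold apart (0.97 ± 0.11, edgeR adjusted p = 1.55e-05). Cd74 (0.68 ± 0.14) and H2-Ab1 (0.59 ± 0.17) rose there too, and H2-Eb1 did not pass (0.08 ± 0.15). Some of these calls were lost under single alternatives. The cDC1 call of H2-Aa was lost without control 1 (0.23) or treated 2 (0.26) and with no low-count filter (0.19). That of H2-Ab1 was lost without control 3 (-0.20) or treated 1 (-0.26), 2 (-0.28) or 3 (-0.22), with DESeq2 (-0.27) and with stricter gates (-0.20). The H2-Eb1 call in mature dendritic cells was lost without control 1 (0.36) or 3 (0.34), and the H2-Ab1 call in pDC without control 1 (0.61) or 2 (0.37) or treated 2 (0.60). With cells thinned to equal depth, H2-Ab1 was no longer called in cDC1 (-0.15) or pDC (0.30).

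B cells showed the same split between the chains. H2-Aa rose from 3063, 2702 and 2862 CPM in controls to 4055, 4213, 4315 and 4076 CPM in treated libraries (0.43 ± 0.10, edgeR adjusted p = 0.0035), without overlap. H2-Ab1 stood at 2113 ± 12.6 and 2239.9 ± 160.0 CPM (-0.02 ± 0.10), H2-Eb1 at 1862 ± 69.4 and 1921 ± 104 (-0.06 ± 0.10), and Cd74 at 10146 ± 714 and 11338 ± 595 (0.05 ± 0.11), none of them called. In CPM before TMM scaling, H2-Ab1 too was higher in every treated library than in any control. In monocytes H2-Aa was 560.2, 338 and 404 CPM in controls and 902, 538, 664 and 790.1 in treated libraries. These overlapped, and the call (0.64 ± 0.19, edgeR adjusted p = 0.0139) was lost without control 3 (0.57) or treated 1 or 4 (0.49) and with stricter gates (0.45). The Cx3cr1 monocyte markers in that class rose from 198 ± 36.3 to 1058 ± 169 CPM and the cDC2 markers from 53.5 ± 7.52 to 212 ± 34.4 CPM, and their part in the result was not tested.

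The ratio of H2-Aa to H2-Ab1 UMIs within a library, which does not depend on scaling between libraries, showed the split directly. In cDC1 it was 0.814, 0.908 and 0.758 in controls and 1.23, 1.22, 1.29 and 1.11 in treated libraries. In cDC2 it was 0.916, 0.938 and 0.792 in controls and 1.29, 1.29, 1.25 and 1.26 in treated libraries. In B cells it was 1.45, 1.29 and 1.35 in controls and 1.90, 1.91, 2.01 and 1.65 in treated libraries. Every treated library lay above every control in 9 of 12 classes, and 3 classes overlapped. The 9 include CD8 T cells, other T cells and CD4 T cells, the last with 1 control library only. Subtracting free RNA took H2-Aa from 46.0 to 1.75 CPM in treated CD8 T cells and from 55.3 to 1.48 CPM in treated other T cells. With free RNA subtracted the ratio could be formed in 11 classes and was higher in all treated libraries in 6, lower in 1 and overlapping in 4. The 6 include cDC1 (0.826 ± 0.0760 and 1.21 ± 0.0752), B cells (1.39 ± 0.0988 and 1.88 ± 0.157) and macrophages (0.934 ± 0.0614 and 1.28 ± 0.102). By contrast the ratio of H2-Eb1 to H2-Ab1 overlapped between groups in 9 of 12 classes. Cd74 over the sum of the 3 chains also overlapped in 9. No test was run on these ratios.

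**Figure D4:**
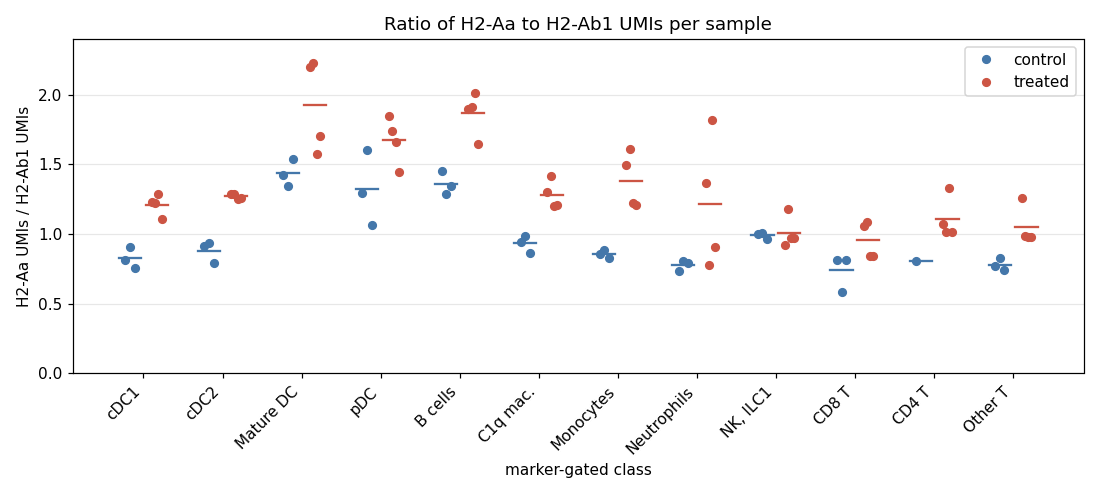
Ratio of H2-Aa to H2-Ab1 UMIs per library and class (linear axis from 0), control blue and treated red, with a bar at the group mean. Treated points lie above all control points in 9 of 12 classes (CD4 T cells with 1 control only), with overlap in pDC, neutrophils and NK cells.

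Ciita, the coactivator of the whole set, was called higher in 6 of the 10 classes in which it could be tested and lower in none. It rose from 118 ± 22.6 to 301 ± 49.7 CPM in macrophages (1.28 ± 0.16, edgeR adjusted p = 3.21e-05). In cDC1 it was 473, 396 and 359 CPM in controls and 651, 639, 643 and 582 in treated libraries (0.54 ± 0.11, edgeR adjusted p = 0.00104), and no treated library reached down to a control. In B cells it rose from 223 ± 48.5 to 355 ± 33.2 CPM (0.54 ± 0.13), in monocytes from 23.0 ± 7.19 to 55.5 ± 14.0 (1.19 ± 0.25), in pDC from 46.0 ± 21.2 to 96.0 ± 10.9 (0.95 ± 0.23) and in cDC2 from 451 ± 70.4 to 606 ± 35.2 (0.37 ± 0.11). The cDC2 and pDC calls were each lost without control 3 (0.27 and 0.67) and with cells thinned to equal depth (0.22 and 0.40). In mature dendritic cells Ciita missed the threshold (0.56 ± 0.21, edgeR adjusted p = 0.0681). The matrices count whole genes, so its start sites cannot be told apart. Thinned to 1500 UMIs per cell, 27.4% ± 4.16 of control B cells and 40.4% ± 3.42 of treated ones held a Ciita UMI, against 0.546% ± 0.946 and 0.180% ± 0.177 of CD8 T cells. Without thinning the shares were 35.4% ± 5.53 and 58.6% ± 3.31 of B cells.

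H2-DMa and H2-DMb2 fell in conventional dendritic cells, macrophages and monocytes, classes in which H2-Aa rose. H2-DMa was lower in 10 of 12 classes and higher in none. The 10 include neutrophils, NK cells and the T cell classes, at low levels. With free RNA subtracted, H2-DMa in neutrophils was 4.87 ± 6.64 CPM in controls and 5.83 ± 2.65 in treated libraries. The CD4 T cell call was then lost (-1.17), and those in NK, CD8 and other T cells were kept. In cDC1 H2-DMa was 977, 1014 and 1028 CPM in controls and 817, 799.6, 694 and 811 in treated libraries, and fell by 0.45 ± 0.10 (edgeR adjusted p = 0.00209). In cDC2 it fell by 0.49 ± 0.10, in mature dendritic cells by 0.70 ± 0.16, in monocytes by 0.46 ± 0.10 and in macrophages by 0.39 ± 0.13. The macrophage call was lost without control 1 (-0.39) or 2 (-0.39). In B cells (337 ± 18.0 and 352 ± 22.7 CPM) and pDC (381 ± 97.6 and 329 ± 39.9 CPM) it was not called. H2-DMb2 in cDC2 was 457, 478 and 489 CPM in controls and 351, 331, 339 and 352 in treated libraries, and fell by 0.53 ± 0.10 (edgeR adjusted p = 0.000343). It fell by 0.75 ± 0.14 in cDC1, 0.87 ± 0.17 in macrophages and 1.25 ± 0.29 in monocytes. In B cells H2-DMb2 stood higher in all 4 treated libraries (327 ± 27.3 and 422 ± 16.7 CPM) without being called (edgeR adjusted p = 0.107), although it was called with no low-count filter (0.37). H2-DMb1 was called lower in cDC1 alone of the antigen-presenting classes, by 0.32 ± 0.11 with overlapping libraries, and this was lost without control 2 (-0.35) or 3 (-0.24) or treated 3 (-0.26) or 4 (-0.33). With cells thinned to equal depth, the calls of H2-DMa in cDC1 (-0.29), mature dendritic cells (-0.51) and monocytes (-0.36), of H2-DMb1 in cDC1 (-0.27) and of H2-DMb2 in macrophages (-0.21) were lost.

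The use of the DM beta genes differed by lineage. H2-DMb1 made up 78.0 ± 0.163 percent of H2-DMb1 and H2-DMb2 UMIs in control cDC1, 82.3 ± 1.66 percent in macrophages and 88.2 ± 3.80 percent in pDC, but 47.1 ± 4.65 percent in cDC2, 31.4 ± 4.78 percent in mature dendritic cells and 23.2 ± 0.890 percent in B cells. In treated libraries the share was higher without overlap in cDC1 (82.8 ± 2.67), cDC2 (56.7 ± 1.64), macrophages (89.2 ± 3.54) and monocytes (83.0 ± 1.90 in controls and 90.7 ± 1.96). In B cells it was lower (18.6 ± 1.57), but with free RNA subtracted the B cell groups overlapped (19.2 to 21.3 in controls and 16.5 to 20.1 in treated libraries). The pair are near-identical copies, so the split between them is uncertain. H2-DMa overlaps Brd2 on the other strand, H2-Oa overlaps another gene on the other strand and Ciita overlaps Dexi in the GENCODE annotation of GRCm38, and the sources used here do not say whether counting used strand.

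H2-Ob rose in all 4 dendritic classes and in B cells, and H2-Oa in 3 of those dendritic classes, without a call in pDC. H2-Ob in cDC2 was 68.7, 63.9 and 66.5 CPM in controls and 142, 192, 196 and 152 in treated libraries, a 2.45-fold rise (1.29 ± 0.13, edgeR adjusted p = 1.09e-06). In cDC1 it was 85.9, 77.8 and 83.2 CPM in controls and 164, 238, 189 and 165 in treated libraries (1.12 ± 0.14, edgeR adjusted p = 1.5e-05). Neither class overlapped between groups. In mature dendritic cells it rose from 27.0 ± 11.4 to 78.6 ± 35.5 CPM (1.53 ± 0.34), and in B cells, where it was highest, from 402 ± 32.1 to 623 ± 52.1 CPM (0.51 ± 0.11). H2-Oa rose in cDC1 from 97.6 ± 3.93 to 166 ± 16.6 CPM (0.68 ± 0.12) and in cDC2 from 195 ± 15.2 to 284 ± 30.2 CPM (0.48 ± 0.11), and was not called in B cells (0.02 ± 0.11). In mature dendritic cells its call (0.77 ± 0.26) was lost without control 1 (0.47) or 3 (0.67) or treated 1 (0.71), 2 (0.79) or 3 (0.73), with free RNA subtracted (0.69), with DESeq2 (0.75) and with stricter cells (0.75). In pDC H2-Ob rested on 6 UMIs in all controls, and its call (1.62 ± 0.51) was lost without control 1 (1.34) or 3 (1.40) or treated 3 (1.5) or 4 (1.53), with free RNA subtracted (1.16) and with DESeq2 (1.61).

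Because B cells were more numerous in treated libraries, B cell markers were followed in the dendritic classes. The 7 B cell markers summed to 13.1 ± 7.34 CPM in control cDC2 and 44.4 ± 8.52 in treated cDC2, with all 7 detected in treated cells, against 9293 ± 167 CPM in treated B cells themselves. In cDC1 they summed to 16.5 ± 9.09 and 51.0 ± 32.6 CPM. H2-Ob in treated cDC2 was 34.5 to 97.2 times, and in treated cDC1 23.2 to 121 times, what free RNA would give. With free RNA subtracted both calls were kept, at 176 ± 28.1 CPM in treated and 71.7 ± 3.94 CPM in control cDC2. Thinned to 1500 UMIs, 8.17% ± 0.625 of control cDC2 and 24.4% ± 5.47 of treated cDC2 held an H2-Ob UMI, 43.9% ± 2.73 and 60.5% ± 2.76 of B cells, and 1.36% ± 0.813 and 3.47% ± 1.12 of CD8 T cells. The unthinned shares of B cells were 57.0% ± 6.62 and 80.4% ± 3.24.

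Whether a change differed between 2 classes was tested by the class-by-group term of a joint edgeR fit against cDC2, with the library as a block. Macrophages differed from cDC2 in 5 of the 10 genes (11.0% of all genes were called in that comparison). H2-Aa rose by 0.90 ± 0.12 more on the log2 scale, Cd74 by 0.97 ± 0.11, H2-Ab1 by 0.98 ± 0.12, H2-Eb1 by 1.13 ± 0.12 and Ciita by 0.92 ± 0.15 (edgeR adjusted p between 6.03e-07 and 0.000172). pDC differed in 3 genes (12.6% of all genes), H2-Ab1 by 0.71 ± 0.15, Cd74 by 0.57 ± 0.12 and H2-Aa by 0.55 ± 0.12. B cells differed in 3 (12.3% of all genes): H2-DMb2 by 0.89 ± 0.12 and H2-DMa by 0.54 ± 0.12, both falling in cDC2 and not in B cells, and H2-Ob by -0.67 ± 0.14, its rise being smaller in B cells. Monocytes differed in Ciita alone, by 0.81 ± 0.21 (12.4% of all genes), and this call was lost without treated 4, at 0.68. cDC1 differed in Cd74 alone, by -0.26 ± 0.07 (6.19% of all genes), and this was lost without control 1 (-0.27) or 3 (-0.18) or treated 3 (-0.25) or 4 (-0.22). For H2-Aa, the chain that rose in both, cDC1 and cDC2 were not called apart (-0.24 ± 0.08, edgeR adjusted p = 0.0735).

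Within a class, cells were compared by the UMIs of H2-Aa, H2-Ab1, H2-Eb1 and Cd74 together after thinning each cell to 1500 UMIs. Macrophages of control livers ranged widely: the median over libraries of the 10th percentile was 1 UMI, of the median cell 24 UMIs and of the 90th percentile 48 UMIs. In the 3 treated libraries with at least 20 such cells these were 19, 51 and 77 UMIs. In controls 58.5% to 70.0% of macrophages held 15 or more of these UMIs, and in those 3 treated libraries 89.1% to 95.3%. In pDC the median cell held 6 UMIs in controls and 12.5 in treated libraries, and the share with 15 or more was 11.9% to 22.8% and 36.4% to 44.9%. Monocytes kept a median of 1 UMI in both groups, with 5.37% to 12.98% of control and 9.09% to 13.8% of treated monocytes at 15 or more. cDC1 had a narrow range that overlapped between groups, with a median of 53 UMIs in controls and 56 in treated libraries. For H2-Aa alone, 78.8% ± 3.90 of thinned control macrophages and 97.8% ± 3.77 of treated ones held a UMI. The treated value rests on the same 3 libraries. Thinned CD8 T cells stood at 11.9% ± 5.99 in controls and 6.21% ± 1.94 in treated libraries. Without thinning 92.7% ± 2.52 and 94.7% ± 1.49 of macrophages held an H2-Aa UMI, at median depths of 12135 and 8613 UMIs. Thinning left out 43 of 1600 control and 24 of 165 treated macrophages.

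Classes taken to lack class II moved the other way, at low levels. In neutrophils all 6 genes tested were called lower (25.6% of all genes were called lower and 24.2% higher), in NK cells 8 of 10 lower (15.9% lower, 15.3% higher), in other T cells 8 of 10 lower (14.1% lower, 13.4% higher), and in CD8 T cells 7 lower and 1 higher (28.9% lower, 26.9% higher). In CD4 T cells only H2-DMa of 5 tested was called, lower (9.85% lower, 7.80% higher). This call was lost without control 1 (-1.52) and with free RNA subtracted (-1.17). Cd74 in CD8 T cells was 310.5, 335 and 596 CPM in controls and 65.9, 119, 121 and 121 in treated libraries. These were 0.943 to 3.79 and 0.605 to 1.01 times the free RNA level, whose share of UMIs was also higher in controls (6.68% to 10.7% of CD8 T cell UMIs, against 3.73% to 5.69%). In neutrophils Cd74 stood at 0.806 to 1.38 times that level in controls and 0.963 to 2.79 times in treated libraries. With free RNA subtracted, H2-Aa, H2-Ab1, H2-Eb1 and Cd74 were still tested in neutrophils and none was called. H2-Aa and Cd74 changed sign there (0.60 and 0.59). H2-DMa and H2-DMb1 were no longer tested, so their calls were neither kept nor lost. The NK cell call of H2-DMb2 was lost without control 2 (-3.04) or 3 (-1.20) or treated 1 (-2.22). It was also lost with cells thinned to equal depth (-1.86) and with cells of 2 lineages kept (-1.41). The NK cell call of H2-DMb1 was lost with free RNA subtracted (-3.17) and with thinning (-2.30).

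Some lymphoid values lay above free RNA as estimated from the median marker list. The lists differed: in NK cells of treated 1 they gave shares of 2.37% to 23.6% around a median of 3.45%. In NK cells of control 1 they gave 9.25% to 15.1% around 10.3%. A higher free RNA share would lower the ratios below, and this was not tested. H2-DMa was 2.08 to 7.15 times the free RNA level in control NK cells and 3.54 to 5.64 times in treated ones, and 1.40 to 5.09 and 3.48 to 5.35 times in CD8 T cells. In NK cells with no UMI of any dendritic, B cell or macrophage marker, a restriction chosen after seeing the data, H2-DMa stood at 54.3 ± 23.1 CPM in controls and 24.4 ± 3.51 in treated libraries. H2-Oa in control NK cells, at 29.9, 29.0 and 15.1 CPM, was 12.9 to 23.0 times the free RNA level, and in treated ones, at 3.56 ± 0.903 CPM, 1.05 to 2.02 times. It fell by 2.91 ± 0.36 (edgeR adjusted p = 2.61e-05). In NK cells without those markers H2-Oa was 46.5, 16.2 and 0 CPM in controls, on 8 UMIs in all, and 2.81 to 4.13 CPM in treated libraries, so the groups overlapped. H2-Ob went up in CD8 T cells, from 2.47, 9.73 and 4.09 to 12.9, 27.1, 25.7 and 22.3 CPM (2.27 ± 0.42, edgeR adjusted p = 0.000397), on 14 UMIs in all controls. It was 2.24 to 14.1 and 6.73 to 9.58 times the free RNA level. B cell markers in those cells summed to 27.9 ± 12.7 CPM in controls and 35.7 ± 14.3 in treated libraries. In treated CD8 T cells with no UMI of an antigen-presenting cell marker, H2-Ob was 12.4 ± 2.83 CPM, and the 2 control libraries with enough such cells held 1 UMI. Whether pairs of cells in 1 droplet contribute was not tested beyond leaving out cells that passed the gates of more than 1 lineage.

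The cells that held the liver's class II RNA were not the same in both groups. Of all H2-Aa, H2-Ab1, H2-Eb1 and Cd74 UMIs of a library, cDC1 held 27.7% ± 7.14 in controls and 12.4% ± 2.26 in treated libraries (SD, n = 3 and n = 4). Macrophages held 19.1% ± 3.11 and 5.82% ± 3.02, and monocytes 11.0% ± 2.43 and 1.20% ± 0.737. B cells held 1.39% ± 0.532 of these UMIs in controls and 24.7% ± 10.5 in treated libraries, cDC2 10.8% ± 1.65 and 22.3% ± 5.16, and pDC 0.390% ± 0.0885 and 7.31% ± 1.47. Control tumour cells held 5.12% ± 4.61. Cells that passed no gate held 15.7% ± 2.16 and 8.60% ± 1.37, and cells of more than 1 lineage, set aside as possible doublets, 5.29% ± 0.679 and 8.71% ± 2.20. These shares follow the number of cells as well as the level per cell. Macrophages were 6.23% ± 1.30 of kept cells in controls and 0.459% ± 0.173 in treated libraries, while their level per UMI was higher in treated libraries. B cells were 2.21% ± 1.07 and 10.5% ± 5.10 of kept cells, and cDC2 1.54% ± 0.378 and 1.30% ± 0.238.

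**Figure D5:**
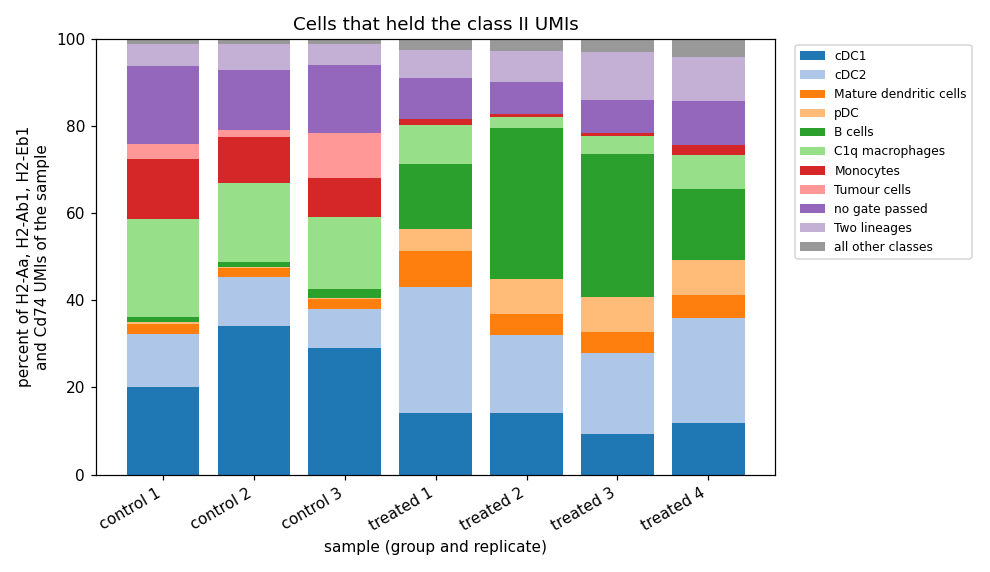
Percent of each library's H2-Aa, H2-Ab1, H2-Eb1 and Cd74 UMIs held by each class of cells, stacked to 100 per library. cDC1, C1q macrophages and monocytes have larger shares in the 3 controls, and B cells, cDC2 and pDC in the 4 treated libraries.

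Summed over all kept cells, 5 of the 10 genes were called. H2-Ob and H2-Oa were higher (33.8% of all genes were called higher) and H2-DMa, H2-DMb1 and H2-Ab1 lower (35.6%). H2-Ob was 11.3, 10.3 and 5.81 CPM in controls and 42.0, 108, 96.8 and 41.0 in treated libraries (2.54 ± 0.42, edgeR adjusted p = 0.00126), and H2-Oa rose by 1.22 ± 0.29. H2-DMa was 331, 319.6 and 134 CPM in controls and 122, 147, 129 and 122 in treated libraries and fell by 1.42 ± 0.25, and H2-DMb1 fell by 1.53 ± 0.24. Control 3, the library with the most tumour cells, held the lowest control level of all 10 genes. Scaling mattered in these sums: TMM lowered the log2 change of every gene by 0.445 against plain CPM, so that Cd74 read 2592 ± 993 and 2889 ± 466 CPM but -0.27 ± 0.24 in the test, and neither Cd74 nor H2-Aa (-0.03 ± 0.27) was called. Without control 3, Cd74 (-0.53) and H2-Eb1 (-0.79) were called lower. The H2-Ab1 call (-0.73 ± 0.23) was lost without control 1 (-0.56) or 2 (-0.66) or treated 1 (-0.62), 3 (-0.70) or 4 (-0.69). Within classes the shift between CPM and the scaled change was 0.0216 to 0.112, and 0.267 in neutrophils.

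Other genes of the class II pathway were followed as 40 genes in 4 lists. Their counts stand beside the shares of all genes called, given above for each class, and a count near that share is no result about the list. Of 18 genes of transcription and interferon signalling, 7 of 15 tested rose in macrophages and none fell (24.3% of all genes were called higher there). In cDC2 10 of 18 rose and 1 fell (21.1% higher), in cDC1 7 of 16 rose and 2 fell (19.1%), in monocytes 11 of 16 rose (24.6%), in B cells 7 of 18 (9.75%), in mature dendritic cells 4 of 15 (10.8%), and in pDC 2 of 18 rose and 1 fell (6.20%). Members of the list rose also in classes where most class II genes tested were called lower. In neutrophils 10 of 15 rose and 1 fell (24.2% of all genes were called higher), and in other T cells 9 of 18 and 1 (13.4%). In CD8 T cells 6 of 18 rose and 2 fell (26.9%), and in NK cells 5 of 17 and 1 (15.3%). In CD4 T cells, where only 1 of 5 class II genes tested was called lower, 3 of 18 rose and 1 fell (7.80%). Irf1, an interferon-induced activator of Ciita, went from 32.2 ± 0.689 to 163 ± 83.2 CPM in macrophages (2.13 ± 0.26, edgeR adjusted p = 2.39e-05), and rose in cDC1 (1.76 ± 0.24), cDC2 (1.51 ± 0.18), mature dendritic cells (1.30 ± 0.20) and monocytes (1.85 ± 0.18). Nfya, a subunit of NF-Y, rose in macrophages (1.34 ± 0.18), cDC1 (1.00 ± 0.17), cDC2 (0.95 ± 0.14), B cells (0.59 ± 0.20) and monocytes (1.45 ± 0.14). Socs1, an inhibitor of interferon signalling, fell in cDC1 (-1.48 ± 0.26) and cDC2 (-1.11 ± 0.22). In pDC, where H2-Aa and Cd74 rose, Irf4 (1.59 ± 0.38) and Irf8 (0.35 ± 0.10) rose and Jak2 fell (-0.82 ± 0.13).

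Of 8 proteases and related enzymes that make peptides for class II, 5 rose and 2 fell in macrophages, where 24.3% of all genes were called higher and 25.2% lower. Ctsb went from 1220.2 ± 13.7 to 4939 ± 696 CPM (1.94 ± 0.14), Ctsd from 925 ± 129 to 3034 ± 475 CPM (1.64 ± 0.16) and Lgmn from 504 ± 62.3 to 1399 ± 222 CPM (1.40 ± 0.15). In cDC1 1 rose and 5 fell (19.1% and 19.3% of all genes), in cDC2 1 and 4 (21.1% and 22.5%), and in B cells none rose and 6 fell (9.75% and 13.6%). None rose in mature dendritic cells, monocytes or pDC, where 4 (11.4% of all genes), 4 (24.1%) and 3 (7.76%) fell. Ctsl, a cathepsin, fell in all 7 of these classes, from -3.77 in B cells to -0.56 in pDC. Ifi30, which reduces disulphide bonds in antigen, fell in cDC1 from 1536 ± 138 to 507 ± 129 CPM (-1.68 ± 0.16) and in macrophages (-0.81 ± 0.14). Ctss, the cathepsin that trims the invariant chain, rose in macrophages (0.71 ± 0.13) and fell in cDC1 (-0.84 ± 0.11). Whether these changes differ between classes was not tested here.

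Of 8 turnover and traffic genes, 3 of 7 tested rose in cDC1 and in cDC2, 3 of 5 in mature dendritic cells, 3 of 8 in macrophages and in monocytes, and none of 7 in pDC or of 6 in B cells, where 6.20% to 24.6% of all genes were called higher. In each of the 7 classes 1 or 2 fell. Cd83, which keeps class II at the surface by opposing the ligase Marchf1, went from 29.2 ± 6.35 to 255 ± 92.2 CPM in cDC2 (3.08 ± 0.25) and from 77.4 ± 12.5 to 352 ± 86.5 CPM in macrophages (2.12 ± 0.19). Marchf1 itself, which marks surface class II for removal, fell in cDC1 (-0.36 ± 0.12). Of 6 costimulatory and checkpoint ligand genes, Cd86 rose in cDC2 from 62.1 ± 5.76 to 208 ± 37.0 CPM (1.69 ± 0.15), in macrophages (1.66 ± 0.13), in B cells (1.22 ± 0.30) and in monocytes (1.05 ± 0.17). None of the 5 tested passed in cDC1. In mature dendritic cells Icosl rose (1.07 ± 0.19) and Cd80 fell (-1.19 ± 0.22). Counts for the costimulatory list were 2 higher and 1 lower of 6 in cDC2, 1 and 2 of 6 in mature dendritic cells and 1 and 1 of 5 in macrophages. They were 2 and 2 of 5 in monocytes, 2 and 0 of 5 in B cells and 0 and 1 of 3 in pDC. In these classes 6.20% to 24.6% of all genes were called higher and 7.76% to 25.2% lower.

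Over the 12 classes, the genes whose level most resembled the mean of H2-Aa, H2-Ab1 and H2-Eb1 were ranked by Pearson correlation of log2(CPM + 1) among 9025 genes. The closest that were not members were Plekho1 (r = 0.952), Pkib (0.947), Ppfibp2 (0.943), Gm6377 (0.933), 9530078K11Rik (0.928), Fgd2 (0.925), Cd86 (0.921), Gdi2 (0.920), Prcp (0.919) and Ifi30 (0.917). Among the members, Cd74 (0.997) and Ciita (0.993) lay closest to the chains, H2-DMa (0.959), H2-DMb2 (0.941) and H2-DMb1 (0.937) followed, and H2-Ob (0.693) and H2-Oa (0.677) lay far below all of these. These values describe 12 classes that share libraries and free RNA. These genes did not all change the same way: in macrophages Pkib rose (1.14, edgeR adjusted p = 2.51e-05) as the chains did, whereas Ifi30 fell and Gdi2 was not called (0.04).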

How the data were processed

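The deposited matrices held UMI counts per gene and cell for 7 libraries of the 10x 3' v3.1 chemistry, made with Cell Ranger 7.0.0 and bcl2fastq 5.0.1 per the submitters' processing notes. The genome build, the annotation and any cell filter beyond the deposited barcodes were not given in the sources used here. A barcode was kept as a cell if it had 500 or more UMIs, 200 or more detected genes and a mitochondrial share below 20%, which left 25444 control and 36860 treated cells. Cells were classed by 2 to 4 distinct markers and a minimum of marker UMIs per 10000. The thresholds were set after seeing the data, and cells passing the gates of more than 1 lineage were set aside as possible doublets. No doublet caller was run. The 10 genes, the marker lists and the pathway lists were chosen with earlier results of these data known. All 10 genes were named in every class. Pathway genes were named as counts and examples (a gene of the transcription list is not reported here), and the 10 genes most like the chains were those with at least 20 CPM in a class.

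Counts were summed per library and class with at least 20 cells, filtered by filterByExpr, scaled by TMM and tested in edgeR (version 4.0.16, under R 4.3.3) by quasi-likelihood, with Benjamini-Hochberg adjustment over all genes of the class. Free RNA was estimated as the median, over marker lists of other lineages with at least 50 UMIs expected, of the list's share of a class's UMIs over its share of the whole library. On simulated counts with 200 genes changed 2-fold, the test recovered 81.5% in cDC2 (9408 genes), 78.0% in C1q macrophages (6484 genes) and 51.0% in B cells (9773 genes). Alternatives were median-of-ratios size factors, DESeq2 1.42.0, no low-count filter, a replicate block, each library left out, free RNA subtracted, stricter gates, stricter cells, cells of 2 lineages kept and thinning to 1500 UMIs. A further 2 were chosen after seeing the data: macrophages outside the monocyte gate, and cells with no antigen-presenting cell marker. Kupffer cell, Cx3cr1 monocyte and erythroid markers were followed but not gated.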

Additional observations from a re-analysis of the deposited data

Results flagged for a closer look

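In 13 cases the change of a gene in one class differed from its change in cDC2 by the class-by-group term of the joint edgeR fit. Of 10 genes tested per comparison, 5 were called in C1q macrophages (11.0% of all genes), 3 in pDC (12.6%) and 3 in B cells (12.3%). In monocytes 1 was called (12.4%) and in cDC1 1 (6.19%), counts near those shares. In C1q macrophages the log2 rise was larger than in cDC2 by 1.13 for H2-Eb1, 0.98 for H2-Ab1, 0.97 for Cd74, 0.92 for Ciita and 0.90 for H2-Aa. In pDC it was larger by 0.71 for H2-Ab1, 0.57 for Cd74 and 0.55 for H2-Aa. In B cells the change of H2-DMb2 lay 0.89 and that of H2-DMa 0.54 above cDC2, and that of H2-Ob lay at -0.67 against it. In monocytes the rise of Ciita was larger by 0.81. In cDC1 the change of Cd74 lay at -0.26 against cDC2.

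Of 107 groups of 4 libraries looked at, 3 held a library far from the others, and chance gives about 1 in 20 such groups. H2-DMa in cDC1 was lowest in treated 3, at 694 CPM. Ciita in B cells was highest in treated 4, at 405 CPM. Cd74 in CD8 T cells was lowest in treated 1, at 65.9 CPM.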

How the results depend on the processing

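Of 75 called values, 75 were kept with median-of-ratios size factors, 72 with DESeq2, 74 with no low-count filter, 54 of 62 with free RNA subtracted, 49 of 61 with cells thinned to equal depth, 68 of 70 with stricter gates, 69 of 70 with stricter cells and 68 of 70 with cells of 2 lineages kept. In all 7 fits that left out 1 library, 61 were kept. With free RNA subtracted, H2-Aa and Cd74 in neutrophils changed sign, to 0.60 and 0.59. The number called there went from 6 to 0, with H2-DMa and H2-DMb1 no longer tested. Thinning gave 5 called in cDC1 in place of 8, 2 in pDC in place of 5 and 5 in NK cells in place of 8. With thinning, H2-Ob in pDC and H2-Oa in NK cells were no longer tested, so part of those drops is not a lost call. For the numbers called under each alternative in this section, the share of all genes called under the same alternative is not given. Whether these numbers moved more or less than that share was not tested. With no low-count filter 7 were called in monocytes in place of 4. In CD4 T cells, where 1 was called, it was 2 with no low-count filter, 4 with the replicate block, 0 with free RNA subtracted, 0 with thinning and 5 with cells of 2 lineages kept. For cDC1 against cDC2, 4 differed with free RNA subtracted in place of 1. The cause was not tested. Leaving out 1 library gave 3 to 5 called in pDC, 0 to 4 in CD4 T cells, 0 to 3 for monocytes against cDC2, 0 to 4 for cDC1 against cDC2 and 3 to 5 for pDC against cDC2. Over all kept cells it gave 4 to 7, in cDC1 6 to 8, in cDC2 5 to 6, in mature dendritic cells 4 to 7, in B cells 3 to 4, in macrophages 6 to 7 and in monocytes 3 to 5. Libraries with the same number did not deviate together (correlation of deviations over all kept cells -0.25, -0.0536 and 0.302), so the numbers do not pair the samples. With the replicate block 69 of the 75 values were kept. The 6 not called with it were H2-Aa (0.27) and H2-DMb1 (-0.32) in cDC1, H2-Eb1 in mature dendritic cells (0.39), H2-Ob in pDC (1.43), H2-DMa in macrophages (-0.40) and H2-Ab1 over all kept cells (-0.64). Depth limits the low genes: both DO genes in macrophages and monocytes had too few UMIs for a test within the class. They were tested only in the joint fits with cDC2, and were not called there.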
